A study of Rattus norvegicus with 6 samples.

Results

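The genes that sense sterols were measured in cultured rat cortical neurons after a short exposure to C1q, the recognition protein of the classical complement pathway. The set was chosen by name and comprised 6 genes, namely Srebf2 and Srebf1, Scap, Insig1, Insig2 and Ch25h, the sterol regulators that the study followed after C1q. The C1q-treated group was neurons given 10 nM C1q for 3 h, and the untreated group was neurons given no agent, with 3 one-colour arrays in each group. All neurons came from the cortex of Sprague-Dawley rat embryos of day 18 and had been kept for 3 days in a medium labelled NB-N2. The labels name no vehicle and do not say how many embryos were combined or whether the replicate numbers stand for separate cultures, so p-values reflect how far these arrays differ from each other, which may be technical variation.

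Of the 29215 probe sets of the table, 15310 named exactly 1 gene, and 6 of those named a member. Insig1 had 2 probe sets, and Srebf2, Scap, Insig2 and Ch25h had 1 each. Srebf1, which encodes SREBP-1, had none, because the 1 probe set that named it also named another gene, and no value is given for it. A filter on dim probe sets kept the brightest 60% by mean, those at an intensity of at least 94.4. It passed 5 of the 6 member probe sets, those of Srebf2, Scap, Insig1 and Insig2, and left out Ch25h.

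Cells set their sterol content through membrane proteins of the endoplasmic reticulum. When sterols are low, Scap carries the sterol regulatory element binding proteins (SREBPs) to the Golgi, where proteases cut them and free a transcription factor that switches on genes of cholesterol and fatty acid synthesis. When sterols are plentiful, Insig proteins hold Scap back, and 25-hydroxycholesterol, the product of cholesterol 25-hydroxylase (Ch25h), binds Insig and strengthens that hold. The brain makes its own cholesterol, since plasma lipoproteins hardly cross the blood-brain barrier, and growing neurons need it for new membrane. Arrays read the mRNA of these proteins and not the cutting of SREBP.

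The stretch just before the gene start is shown for Srebf2, Insig1 and Ch25h, 3 members with values here whose own transcription is known, in other cells, to respond to sterols or to immune signals. Each sequence is 250 bases, 5′ to 3′ on the gene's strand, from RefSeq on the GRCr8 assembly, and all 5 members with values matched the RefSeq table. Windows are chr7:115543057-115543306 on the plus strand for Srebf2, chr4:8057770-8058019 on the minus strand for Insig1, and chr1:241429367-241429616 on the minus strand for Ch25h. Capitals mark the 9-letter core of the sterol regulatory element, the palindromic E-box or the cyclic AMP response element.
Srebf2: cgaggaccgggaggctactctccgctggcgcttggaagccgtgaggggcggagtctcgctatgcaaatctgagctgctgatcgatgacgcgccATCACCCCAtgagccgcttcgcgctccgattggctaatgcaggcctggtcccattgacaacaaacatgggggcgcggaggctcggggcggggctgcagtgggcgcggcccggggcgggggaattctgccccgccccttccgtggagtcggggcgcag
Insig1: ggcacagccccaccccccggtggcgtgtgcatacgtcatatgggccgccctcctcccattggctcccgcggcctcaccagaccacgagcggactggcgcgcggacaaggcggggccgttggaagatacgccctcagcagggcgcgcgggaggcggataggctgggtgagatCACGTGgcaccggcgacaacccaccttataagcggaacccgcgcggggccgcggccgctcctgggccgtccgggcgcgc
Ch25h: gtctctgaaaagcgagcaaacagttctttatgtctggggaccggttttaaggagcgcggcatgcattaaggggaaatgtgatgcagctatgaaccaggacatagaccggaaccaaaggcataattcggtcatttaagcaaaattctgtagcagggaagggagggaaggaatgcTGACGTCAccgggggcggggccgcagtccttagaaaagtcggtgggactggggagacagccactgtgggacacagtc

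The core ATCACCCCA was searched on both strands and stood in the Srebf2 window, 149 to 157 bases before the start. It was present in 0.212% of 33469 such windows. The E-box CACGTG stood in the windows of Insig1 and Scap, and 5.59% of windows held it. The cyclic AMP response element TGACGTCA stood in the Ch25h window, and 1.59% of windows held it. The E-box and this element are their own reverse complement. On either strand, CCAAT stood in the windows of Srebf2, Insig1 and Insig2 and in 34.0% of all, and GGGCGG in those of Srebf2, Insig1, Ch25h and Scap and in 30.5% of all. These motifs were chosen after the sequences had been seen, and a match is a run of letters, not a shown site of binding.

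None of the 5 tested member probe sets passed the test of C1q against untreated neurons. Fold changes of C1q over untreated were 1.00 for Srebf2, 0.991 for Scap, 0.980 and 1.03 for the Insig1 probe sets and 1.03 for Insig2. Ch25h, too dim for this test, averaged 32.8 after C1q and 37.2 untreated, and its groups overlapped. Fold changes were computed by limma on log2(intensity + 16), a scale that understates the change of dim genes, with Benjamini-Hochberg adjustment over all 17529 probe sets tested and calls at an adjusted p under 0.05. Of the 17529 tested probe sets, 0% were called, with no adjusted p under 0.9999. Before adjustment, 0 of the 5 member probe sets had a p under 0.05, as 2.49% of all tested probe sets did. The 95% intervals of the 5 probe sets ran from a fold of 0.906 at the lowest bound to 1.16 at the highest.

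Srebf2 encodes SREBP-2, the factor that drives genes of cholesterol synthesis and uptake. Its probe set read 2516, 2634 and 2550 on C1q arrays 1 to 3, against 2664, 2537 and 2475 on untreated arrays 1 to 3. Both the highest and the lowest of the 6 values were on untreated arrays, and the C1q values lay inside that range. The means were 2566 ± 60.9 after C1q and 2559 ± 96.7 untreated (SD, n = 3 each). The fold change of Srebf2 was 1.00 with a 95% interval of 0.937 to 1.07 (limma, adjusted p = 0.9999).

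Scap encodes the escort protein of the SREBPs. It read 971, 1012 and 987 on C1q arrays 1 to 3, against 1025, 985 and 989 on untreated arrays 1 to 3. The lowest value was on C1q array 1 and the highest on untreated array 1, and the groups overlapped. Scap averaged 990.2 ± 20.9 after C1q and 999.8 ± 22.0 untreated (SD, n = 3 each), and its fold change was 0.991, with a 95% interval from 0.920 to 1.07 (limma, adjusted p = 0.9999). Its within-group SD of 0.031 on the log2 scale was lower than that of all but 3.59% of tested probe sets, whose median SD was 0.083.

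Insig1 encodes the retention protein that is itself a known target gene of SREBP, so that its mRNA follows the activity of the pathway in many cells. Its brighter probe set, 10859880, read 2110, 2093 and 1979 on C1q arrays 1 to 3, against 2196, 1969 and 2146 on untreated arrays 1 to 3. Both the highest and the lowest value were on untreated arrays. The dimmer probe set, 10861986, read 1553, 1764 and 1714 on C1q arrays, against 1662, 1581 and 1616 on untreated arrays. Here the C1q arrays spread more widely than the untreated ones, with the lowest value on C1q array 1 and the highest on C1q array 2.

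The 2 Insig1 probe sets gave fold changes of opposite sign, and neither passed. The brighter one had means of 2061 ± 71.4 after C1q and 2104 ± 119 untreated (SD, n = 3 each) and a fold change of 0.980 (95% interval 0.906 to 1.06). The dimmer one had means of 1677 ± 110.3 after C1q and 1620 ± 40.7 untreated (SD, n = 3 each) and a fold change of 1.03 (95% interval 0.951 to 1.12), and the limma adjusted p was 0.9999 for both. The brighter minus the dimmer probe set came to 0.44, 0.24 and 0.21 log2 on C1q arrays 1 to 3, against 0.40, 0.31 and 0.41 log2 on untreated arrays 1 to 3. The log2 fold changes of the 2 probe sets differed by -0.08, which was within the spread between arrays (exact permutation test, two-sided, p = 0.4, where 20 splits allow no p under 0.1). Over the 6 arrays their log2 values had a Pearson r of -0.02, given as a description.

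Insig2 encodes the second retention protein, which is not driven by SREBP in the way Insig1 is. It read 346, 404 and 370 on C1q arrays 1 to 3, against 368, 335 and 382 on untreated arrays 1 to 3. The highest value was on C1q array 2 and the lowest on untreated array 2, and the other 4 lay between them in mixed order. The means were 374 ± 29.3 after C1q and 362 ± 23.9 untreated (SD, n = 3 each), with a fold change of 1.03 and an interval of 0.914 to 1.16 (limma, adjusted p = 0.9999). Its interval was the widest among the 5 tested probe sets. The sign of this value depended on single arrays, as the log2 fold change was 0.04 with all arrays, -0.01 without C1q array 2, -0.01 without untreated array 2 and 0.10 without C1q array 1.

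Ch25h encodes the enzyme that makes 25-hydroxycholesterol and is known in macrophages as a gene induced by interferon. It read 30.4, 41.8 and 26.2 on C1q arrays 1 to 3, against 39.2, 36.5 and 35.9 on untreated arrays 1 to 3. The C1q arrays held both the highest and the lowest value, and the 3 untreated arrays lay close together between them. Ch25h averaged 32.8 ± 8.05 after C1q and 37.2 ± 1.76 untreated (SD, n = 3 each). The exact permutation test gave p = 0.4 (two-sided, smallest possible 0.1). In a limma fit without the filter the fold change was 0.910 (95% interval 0.736 to 1.12, adjusted p = 0.99998). The log2 fold change of Ch25h was -0.14 with all arrays, -0.26 without C1q array 2 and -0.04 without C1q array 3. With a pseudocount of 1 it was -0.20, and with a pseudocount of 64 it was -0.07.

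**Figure D1:**
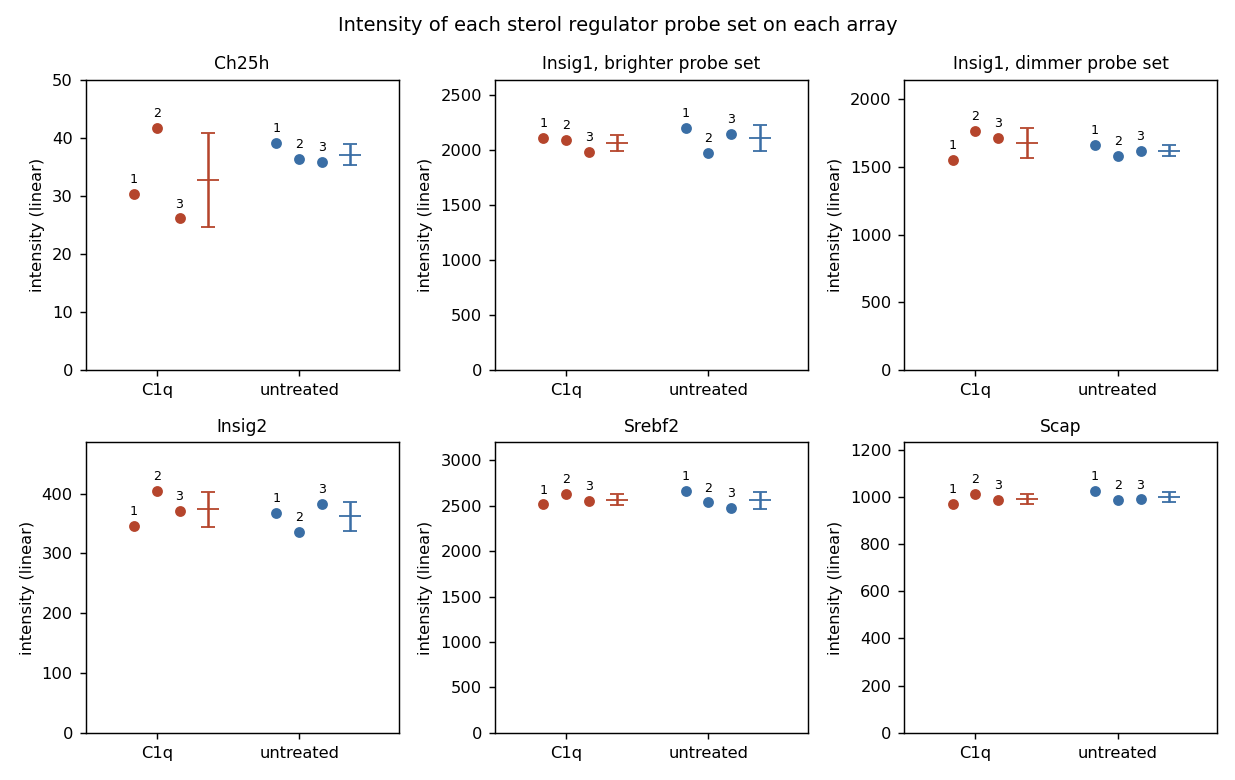
Intensity on a linear axis starting at 0 for each of the 6 member probe sets, with 1 point per array numbered by replicate, C1q on the left and untreated on the right, and the mean ± SD beside each group. The groups overlap in every panel, and Ch25h lies at 26.2 to 41.8.

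Groups did not overlap for 0 of the 6 member probe sets, beside 5.72% of the tested and 7.06% of all probe sets. The order of the arrays within each group was also set beside that of all tested probe sets. C1q array 2 was the highest of its group for 5 of the 6 member probe sets, and for 47.3% of all tested probe sets. Untreated array 1 was the highest of its group for 5 of the 6, and for 55.2% of all tested. After each array was centred on its median, C1q array 2 was the highest for all 6 member probe sets and for 55.4% of all tested. Untreated array 1 was then the highest for 5 of the 6 and for 59.8% of all tested. The part of array-wide differences in the members' values was not tested.

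Rescaling of the arrays moved small values but made no call among the members. Scap had a log2 fold change of -0.01 as deposited, 0.00 after quantile normalization and 0.01 after median centring, so that its sign depended on the scaling. For Srebf2 these values were 0.00, 0.03 and 0.03, and for Insig2 they were 0.04, 0.06 and 0.07. The brighter Insig1 probe set gave -0.03, -0.01 and -0.0019 and the dimmer one 0.05, 0.06 and 0.07, in the same order. Other fits did call probe sets elsewhere in the table, at 2.55% with array weights, 0.217% without untreated array 2, 0.0513% with the replicate number as a block and 0.00342% without the filter, and 0 member probe sets were called in any of these.

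**Figure D2:**
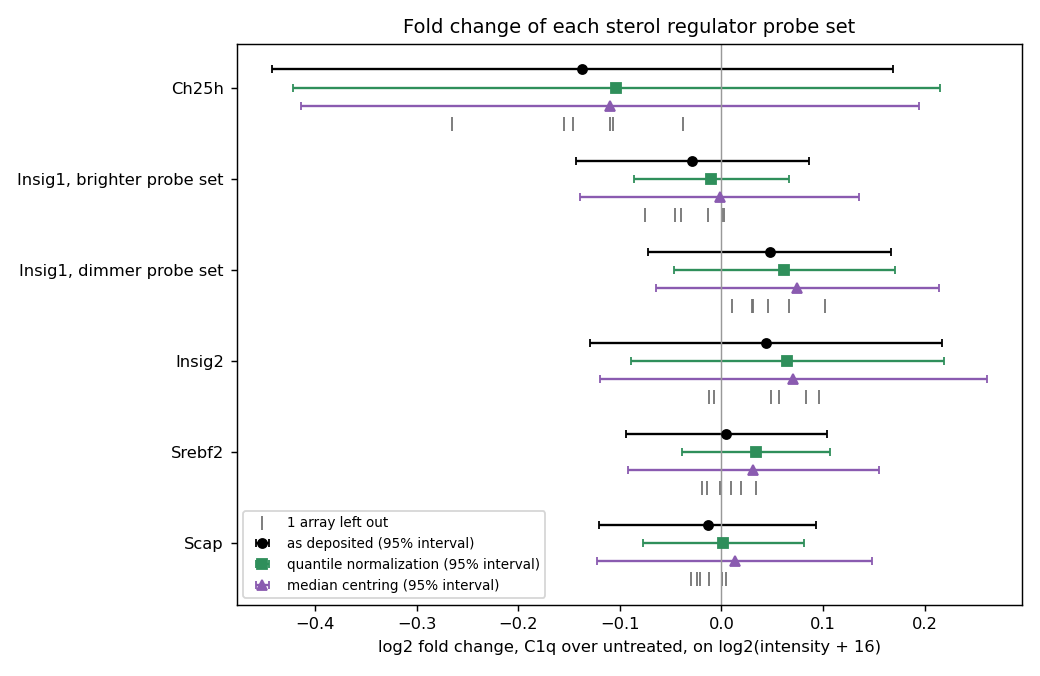
Log2 fold change of C1q over untreated on the log2(intensity + 16) scale for each member probe set, with its 95% interval as deposited and after 2 ways of rescaling, and as ticks with 1 array left out. All intervals span 0, and that of Ch25h, from the fit without the filter, is the widest at -0.44 to 0.17 as deposited.

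Ch25h lay at the level of genes with no expected transcript in neurons. Its mean over the 6 arrays, 35.0, was above 15.4% of all probe sets. Single-gene probe sets of olfactory receptors, which serve here as an approximate floor, numbered 1128 with a median intensity of 30.3 and a 95th percentile of 96.5, and 474 of them were brighter than Ch25h. Of 43 probe sets for genes of liver, muscle, pancreas and other tissues, with a median of 64.2, 35 were brighter. Probe sets differ in how strongly they bind, so this comparison places the value and does not show that the transcript was absent. At such a level the share of background in the Ch25h value is unknown, so a change of the mRNA could exceed the interval above.

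The other members were brighter than most of these probe sets. Srebf2 was brighter than 95.4% of all probe sets, the Insig1 probe sets than 93.5% and 90.9%, Scap than 83.6% and Insig2 than 65.8%. No olfactory receptor probe set was brighter than those of Srebf2, Insig1 or Scap, and 4 of 1128 were brighter than that of Insig2. Of the 43 probe sets for genes of other tissues, 1 was brighter than that of Scap, 2 were brighter than that of Insig2, and 0 were brighter than those of Srebf2 or Insig1. These places describe probe sets and give no order of transcript amounts between genes.

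**Figure D3:**
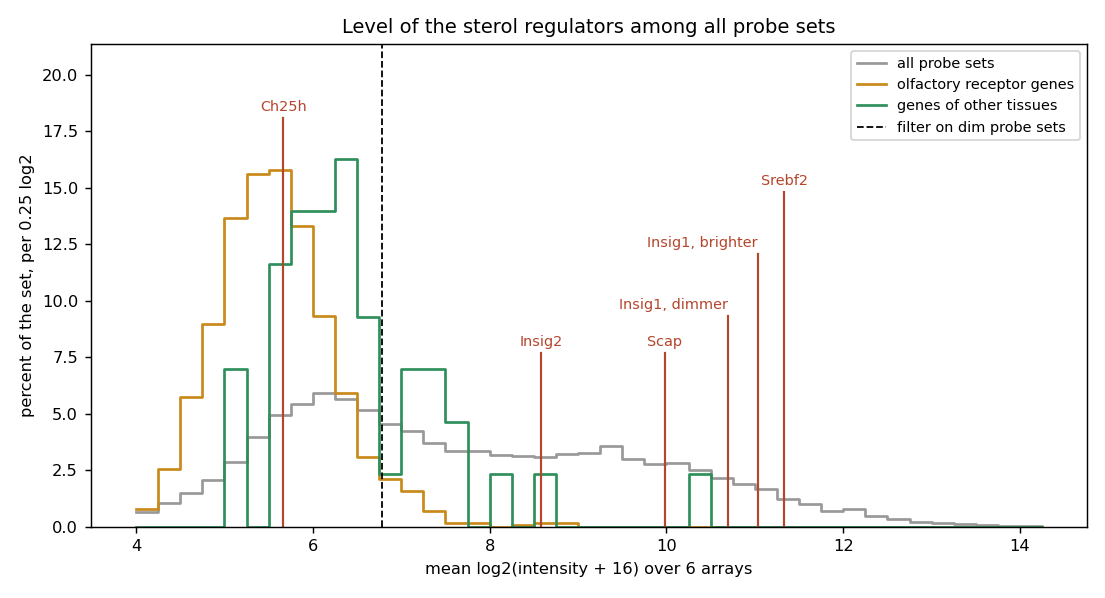
Distribution of mean log2(intensity + 16) over the 6 arrays for all probe sets, for olfactory receptor genes and for genes of other tissues, each as percent of its set, with red lines at the member probe sets and a dashed line at the filter. Ch25h sits among the olfactory receptor genes, and the other members lie to the right of the filter.

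Neuron markers were bright on these arrays. All 12 passed the filter, with Tubb3 at 8015 and Map2 at 5194 on average. Of 11 astrocyte and radial glia markers 10 passed, with Vim at 2989 and Fabp7 at 2300 and the astrocyte gene Gfap below the filter at 49.6. Of 6 oligodendrocyte lineage markers 5 passed, the brightest being Mbp at 267. Of 14 microglia and macrophage markers 3 passed, namely Cd68 at 124, C1qb at 104 and Tmem119 at 101. Among those below the filter were Aif1 at 57.4 and Itgam, the dimmest of the 14, at 31.8. Of 11 endothelial and mural markers 4 passed, namely the smooth muscle actin gene Acta2 at 6747, Col1a1 at 190, Pdgfrb at 135 and Cldn5 at 126. Those below the filter included Pecam1 at 42.6 and Lum, the dimmest of the 11, at 10.6. Microglia and macrophages express Ch25h in other settings. Summed over their 14 markers, intensities were 986 to 1030 on C1q arrays and 988 to 1018 on untreated arrays. Sums over 8 inhibitory neuron markers did not overlap, with 14929 to 15146 on C1q arrays and 15232 to 16114 on untreated arrays. The brightest of these markers, Sst, averaged 5042 and weighs most in the sum. The sums used values as deposited, where 6085 of all 9652 genes tested had a lower mean after C1q. The part of these markers in the members' values was not tested. The sums of the other marker lists overlapped between the groups, and that of the endothelial and mural markers was mostly Acta2. In such bulk RNA, fewer cells of a type and less RNA per cell cannot be told apart. Median intensities of the arrays were 147 to 155, and Pearson r between any 2 arrays, across all probe sets, was 0.991 to 0.996.

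Targets of the SREBPs gave a second view of the pathway, and none of them passed either. SREBP-2 targets of cholesterol synthesis and uptake had 18 tested genes of 23 listed, with 5 means higher and 13 lower after C1q and a median log2 fold change of -0.02, beside -0.02 over all 9652 genes tested, of which 3567 were higher and 6085 lower. After quantile normalization 10 were higher and 8 lower, and after median centring also 10 and 8, where all genes tested gave 5129 higher and 4523 lower after quantile normalization and 5691 and 3961 after median centring. Single arrays also set these counts. SREBP-2 targets with a higher mean numbered 2 without C1q array 2 or without untreated array 3, 3 without untreated array 2, 8 without C1q array 3 and 11 without untreated array 1. Over all genes, leaving out 1 array put the share with a higher mean between 27.9% without untreated array 2 and 55.3% without untreated array 1, beside 37.0% with all 6 arrays. Sqle, the enzyme of the first oxygenation in sterol synthesis, read 2943 ± 48.7 after C1q and 2948 ± 39.3 untreated (SD, n = 3 each), with a fold change of 0.998 (95% interval 0.939 to 1.06). Idi1, which isomerizes the isoprenoid unit, stood at 0.979-fold (0.904 to 1.06). Stard4, a cytosolic sterol carrier, stood at 0.962-fold (0.839 to 1.10).

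SREBP-1 targets of fatty acid synthesis had 13 tested genes of 15, with 4 means higher and 9 lower as deposited, 9 and 4 with quantile normalization and 11 and 2 with median centring. The 4 higher means became 1 without untreated array 2, 7 without C1q array 1, C1q array 3 or untreated array 3, and 10 without untreated array 1. Fasn, the fatty acid synthase, stood at 1.02-fold (95% interval 0.944 to 1.10), and Acaca, which makes its substrate malonyl-CoA, at 1.01-fold (0.922 to 1.10). Scd, a stearoyl-CoA desaturase, read 468, 485 and 456 on C1q arrays 1 to 3, against 499.5, 515 and 506 on untreated arrays 1 to 3. Its groups did not overlap, as for 4.96% of all genes tested, and its fold change of 0.928 (95% interval 0.848 to 1.02) did not pass (limma, unadjusted p = 0.0960, adjusted p = 0.9999).

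The proteins that handle SREBP and Scap had 16 tested genes of 20 listed, 3 higher and 13 lower, with none called. With quantile normalization 7 were higher and 9 lower, and with median centring 9 and 7. Means higher after C1q numbered 1 without C1q array 2, 5 without untreated array 3, 6 without C1q array 3 and 9 without untreated array 1. Fold changes were 0.973 for Mbtps1 and 0.994 for Mbtps2, the proteases that cut SREBP at the Golgi. They were 0.949 for Rnf139 and 1.00 for Syvn1, both ubiquitin ligases of the endoplasmic reticulum. All 4 intervals included 1, and the widest of them, that of Rnf139, ran from 0.855 to 1.05.

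Genes of oxysterols had 12 tested genes of 17 listed, with 5 means higher and 7 lower as deposited, and none was called. Both ways of rescaling gave 10 higher and 2 lower, in the direction in which they moved all genes tested. Leaving out C1q array 2 gave 1 higher mean, untreated array 2 gave 3, C1q array 1 gave 8 and untreated array 1 gave 10. Cyp46a1, the neuronal cholesterol 24-hydroxylase, read 285 ± 3.19 after C1q and 269 ± 15.2 untreated (SD, n = 3 each), with a fold change of 1.06 (95% interval 0.945 to 1.18). Fold changes were 0.997 for the oxysterol-binding protein gene Osbp, 0.997 for the lysosomal cholesterol exporter gene Npc1 and 0.968 for Soat1, which esterifies cholesterol. Cyp7b1, an oxysterol 7-alpha-hydroxylase, lay below the filter at 81.1 ± 8.82 after C1q and 81.4 ± 12.9 untreated (SD, n = 3 each).

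Liver X receptors are nuclear receptors that oxysterols activate, and they and their targets had 11 tested genes of 14 listed. Means were higher for 3 and lower for 8, or 5 and 6 with quantile normalization and 6 and 5 with median centring, and none was called. The 3 higher means became 1 without C1q array 2 and 5 without untreated array 1. Fold changes were 0.969 for Nr1h2, which encodes liver X receptor beta, and 0.989 for the cholesterol exporter gene Abca1. They were 1.02 for Mylip, which marks lipoprotein receptors for breakdown, and 0.978 for Apoe, the main lipid carrier of the brain. Nr1h3, which encodes liver X receptor alpha, lay below the filter at 37.5 ± 2.53 after C1q and 36.6 ± 1.74 untreated (SD, n = 3 each), close to the level of Ch25h. Medians of the log2 fold change were -0.02 for SREBP-1 targets, -0.02 for SREBP handling, -0.0036 for oxysterol and -0.03 for liver X receptor genes.

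**Figure D4:**
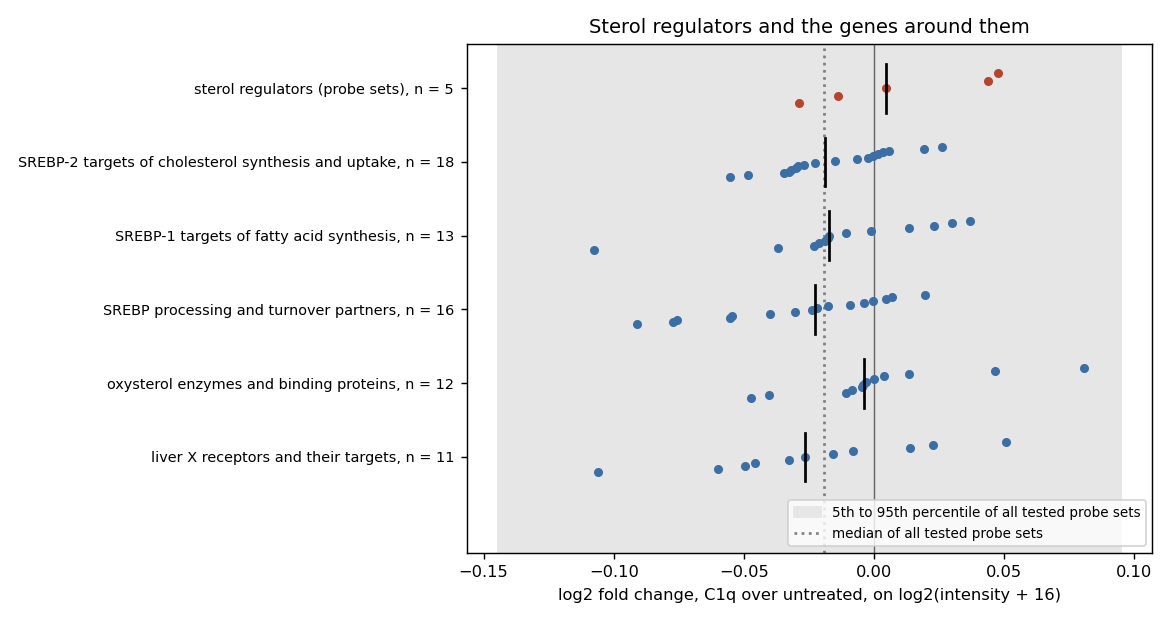
Log2 fold change of C1q over untreated on the log2(intensity + 16) scale for the 5 tested member probe sets in red and for the tested genes of 5 surrounding lists in blue, with black bars at the medians. The grey band spans the 5th to 95th percentile of all tested probe sets, -0.14 to 0.10, and every point shown lies within it.

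The members' patterns over the 6 arrays, both groups together, were compared with each other and with those of the 9652 genes as a description. Srebf2 and Scap had a Pearson r of 0.868, and the dimmer Insig1 probe set and Insig2 one of 0.819. The other 12 pairs of different genes lay between 0.204 and 0.679. The arrays also differed in level as a whole, and these correlations were not corrected for that. The genes most like a member were Gtf3c3 and Miga2 for Srebf2, Pmm2 and Phf12 for Scap, Pls3 and Grk5 for the brighter Insig1 probe set, Fitm2 and Dnajc18 for Insig2, and Aurkb and Atp6v0e2 for Ch25h, with r from 0.984 to 0.999. The genes named were picked as the highest of the 9652 compared. At the looser bound of an r over 0.9, the share of genes was 9.21% for the brighter Insig1 probe set. It was 3.41% for Scap, 3.19% for Srebf2, 1.22% for Insig2 and 0.995% for Ch25h.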

How the data were processed

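Gene expression was measured on 6 one-colour arrays, 3 of C1q-treated and 3 of untreated neurons, grouped by their titles. The RNA was made into biotinylated cRNA for Affymetrix arrays, per the labels' protocols. The deposited values are 1 linear intensity per probe set and array, and how probes were summarised and scaled is a step not given in the sources used here. No detection calls came with them, so how far a value exceeds background is unknown, and the number of arrays limits the precision.

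Gene names came from the platform's annotation table, and symbols were checked through gene identifiers against RefSeq (GRCr8), where 15279 of 15310 single-gene probe sets matched and 0 symbols changed. Members are all single-gene probe sets of the 6 genes. In the surrounding lists, the brightest single-gene probe set stood for a gene. The members and lists were chosen with earlier results of these data known.

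Values were analysed as log2(intensity + 16). The medians of the arrays spanned 0.070 on that log2 scale, below a limit of 0.1, so no rescaling was applied. The brightest 60% of probe sets were tested in limma 3.58.1 (lmFit, then eBayes with trend; R 4.3.3), with Benjamini-Hochberg adjustment, and the procedure was tested on simulated data. Exact permutation tests used scipy 1.17.1 over 20 splits. Named genes were the members, 25 list genes fixed by name, of which 20 had a single-gene probe set, and for each member the 2 genes with the highest Pearson r over the 6 arrays. The 5 surrounding lists held 89 symbols, 77 of them with a single-gene probe set and 70 tested. Alternatives were quantile normalization, median centring, other filters, pseudocounts of 1 and 64, 2 variance models, weighting of arrays, a replicate block, 1 array left out at a time, and averaging the probe sets of a gene. For Ch25h, below the filter, the fit over all probe sets was the base. The other settings of that unfiltered fit were added after the data had been seen.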

Additional observations from a re-analysis of the deposited data

How the results depend on the processing

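Over all alternatives run, limma called no member probe set and none of the 70 tested genes of the 5 surrounding lists. List genes below the filter were not called in the unfiltered fit of values as deposited. They were not checked for calls in the other settings of that fit. Signs near 0 turned in some, and the cause was not tested. Log2 fold changes with 1 array left out ran from -0.075 to 0.0030 for the brighter Insig1 probe set, 0.010 to 0.101 for the dimmer one, -0.012 to 0.096 for Insig2, -0.019 to 0.034 for Srebf2, -0.029 to 0.0042 for Scap and -0.26 to -0.04 for Ch25h. Insig2 was at -0.047 with array weights, a fit in which untreated array 3 weighed 5.51 and untreated arrays 1 and 2 weighed 0.362 and 0.335. Scap was at 0.013 with median centring and 0.0018 with quantile normalization and Insig1 at 0.0096 with the mean of its probe sets. Over the whole table, array weights called 130 probe sets higher and 317 lower, and leaving out 1 array called 0 to 28 higher and 0 to 10 lower, every call arising when untreated array 2 was dropped. The unfiltered fit called 0 higher and 1 lower.

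With the replicate number as a block, 9 probe sets were called higher and 0 lower, against 0 without it. Same-numbered arrays deviated from their group means with correlations of 0.014, -0.45 and -0.13 across probe sets, for replicates 1 to 3. The highest correlation of each C1q array with an untreated array of another number was 0.010, 0.35 and 0.45, in the same order. With 3 arrays per group, such correlations cannot decide whether same-numbered arrays belong together. The block changed no call among the members. What could not be measured is a change of a transcript as dim as Ch25h, whose share of background is unknown, and Srebf1 was not analysed here.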

Other observations

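Gpr183, which encodes the receptor for 7-alpha,25-dihydroxycholesterol, a product made from 25-hydroxycholesterol, is named here after its values were seen. It lay below the filter and read 69.7, 70.8 and 85.9 on C1q arrays 1 to 3, against 54.8, 63.0 and 63.5 on untreated arrays 1 to 3. The groups did not overlap, as for 7.06% of all probe sets. In the limma fit without the filter its fold change was 1.19 with an interval of 0.998 to 1.43 and an adjusted p of 0.99998, so it did not pass.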
